A study of Mus musculus with 6 samples.

Results

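S100 proteins are small calcium-binding proteins, most of which form dimers through paired EF-hand motifs. *S100a8* and *S100a9* encode the subunits of calprotectin, the heterodimer that fills much of the neutrophil cytosol, withholds zinc and manganese from microbes and acts as a danger signal once released. The other members act mostly inside cells, where they bind annexins, myosin and further targets when calcium rises. The genes examined here were 8 members of this family, *S100a8*, *S100a9*, *S100a4*, *S100a6*, *S100a10*, *S100a11*, *S100a13* and *S100a1*, of 55401 genes in the deposited table. They were chosen by name, with earlier results of these data known. All 8 passed the filter used for testing, a mean of at least 1 FPKM over the 6 libraries. FPKM stands for fragments per kilobase of transcript, scaled to the mapped fragments of the library.

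Marrow neutrophils, gated on CD45, CD11b and Ly6G as CD45+ CD11b+ Ly6G+ cells, were profiled by RNA sequencing in 3 libraries of unligated controls (Ctrl) and 3 libraries of mice with ligature-induced periodontitis (Lig). All animals were male C57BL/6 mice of 8 weeks. In the Lig group, silk was tied around the maxillary and mandibular second molars on both sides and left for 14 d, and the controls were left untreated over the same time, so that effects of the inflammation and of the procedure cannot be told apart. Each library was made from pooled neutrophils of 5 mice, so p-values reflect the spread between pools. The comparison asks whether periodontal inflammation alters these transcripts in marrow neutrophils.

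The libraries held 50605309 to 61455112 counts on the deposited scale. The sort genes *Ly6g* (331 ± 6.55 FPKM in Ctrl and 392 ± 18.2 in Lig, SD, n = 3), *Itgam* and *Ptprc* were present in every library. *Ly6g* was itself called higher in Lig (log2 fold change 0.32 ± 0.05, edgeR adjusted p = 0.0153). That call was lost without Ctrl replicate 1, Ctrl replicate 3 or Lig replicate 3 (edgeR adjusted p = 0.0506, 0.0556 and 0.0628). It was also lost with limma on log2(TPM + 1) (adjusted p = 0.0934), where TPM is FPKM rescaled to the same total in every library. *Itgam* was higher on average without passing (0.38 ± 0.13, edgeR adjusted p = 0.101). It stood at 252.64 FPKM in Ctrl replicate 2 and 252.68 in Lig replicate 3. Several lists of markers of other marrow cells held genes that were lower in Lig: 9 of 10 tested erythroid markers and 7 of 8 tested B cell markers fell by the edgeR test, and none of either list was at 0 in every library. The summed level of the erythroid list ranged from 1321 to 1779 FPKM in Ctrl but only from 397 to 510 in Lig. That of the B cell list was 281 to 338 against 154 to 172. Of the remaining lists, 2 of 7 tested progenitor markers, 2 of 8 proliferation genes and 1 of 4 T and NK cell markers fell and none rose, and of 7 immediate early and heat shock genes 3 fell and 1 rose. Median log2 fold changes of these lists, in the same order, were -0.53, -0.36, -0.53 and -0.30. The genes above 0 numbered 1, 0, 1 and 2. Over all genes tested, 6.43% were called lower and 3.96% higher. Of 5 tested eosinophil and basophil markers, 0 passed by edgeR, DESeq2 or limma, and 0 had an unadjusted p under 0.05. The part of these lists in the changes of the S100 genes was not tested. In bulk samples, fewer cells of a type and less RNA per cell cannot be told apart.

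The promoters of the calprotectin pair and the gap between *S100a1* and *S100a13* are printed first, since the members' changes are compared along the gene cluster below. Sequences were taken from RefSeq (GRCm38.p6, the build of the deposited coordinates), in which 7 of the 8 members matched, and run 5′ to 3′ on the strand of the gene. Capitals mark matches to TTNCNNAA, a C/EBP-type motif, and to TATAAA, searched on both strands. The *S100a8* sequence, chr3:90668831-90668987 on the plus strand, ends 84 bases before its RefSeq start. The *S100a9* sequence is chr3:90695712-90695961 on the minus strand. It runs to the 10th base of the transcript S100a9-202, which starts at 90695721. The third sequence, chr3:90514393-90514434 on the plus strand, is the whole gap of 42 bases between the annotated ends of the divergent genes *S100a1* and *S100a13*, and is printed without capitals.
S100a8: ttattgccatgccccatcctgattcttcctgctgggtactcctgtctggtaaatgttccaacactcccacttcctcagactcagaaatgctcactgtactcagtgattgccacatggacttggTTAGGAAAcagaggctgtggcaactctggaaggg
S100a9: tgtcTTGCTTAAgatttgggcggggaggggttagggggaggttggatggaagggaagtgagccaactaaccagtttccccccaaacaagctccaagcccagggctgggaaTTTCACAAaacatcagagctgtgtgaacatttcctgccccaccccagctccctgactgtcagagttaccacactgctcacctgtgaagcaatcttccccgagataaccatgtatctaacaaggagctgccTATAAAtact
S100a1-S100a13 stretch: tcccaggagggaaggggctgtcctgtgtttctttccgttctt

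In the windows searched (250 bases before to 50 after each RefSeq start, 300 in all), *S100a9* held matches to the C/EBP-type motif at positions -236 and -130 and *S100a8* a match at -117, on the opposite strand. The motif was found in 40.7% of 32851 promoters of the same length. C/EBP factors drive granulocyte genes in marrow. *S100a8* also held GAGGAAGT, a PU.1-type motif, at -172 on the opposite strand (3.20% of promoters), and TATAAA at -30, which stands in 13.6% of promoters. This TATAAA match lies beyond the printed sequence and downstream of the deposited gene start at 90668978. In *S100a9* the TATAAA match began at the annotated start of S100a9-202 itself. It lay upstream of the start of the other annotated transcript, S100a9-201, at 90695711. *S100a4* held TATAAA at -31 and, on the opposite strand, GAGGAAGT at 18, inside its transcript. *S100a11* held the shorter core GAGGAA at -153 (28.3% of promoters). Apart from its GAGGAAGT match, *S100a8* held this core at -36 on the opposite strand. TTCNNNGAA, a STAT-type motif present in 8.30% of promoters, was found in none of the 7 member windows, and the windows of *S100a6*, *S100a13* and *S100a1* held none of the motifs searched. These matches describe letters in the windows and say nothing of binding.

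The 8 genes spanned nearly 4 orders of magnitude in level. By mean FPKM, which is scaled to transcript length, *S100a9* ranked first of all genes, *S100a8* ranked 3 behind *Ngp*, which encodes neutrophilic granule protein, and *S100a11* ranked 8. The mean level of *S100a8* was 6.85 times that of *S100a11*, which in turn was 7.42 times that of *S100a6*. Over the 6 libraries the ranges of *S100a9*, *S100a8*, *S100a11*, *S100a6* and *S100a13* did not overlap, so that this order held in every library. The lowest 3, *S100a10*, *S100a1* and *S100a4*, overlapped one another. In Ctrl *S100a10* stood above *S100a1* in every library, whereas in Lig their ranges overlapped. The 9 other S100 genes on the list fixed for the family stayed under the filter: *S100a7a* lay between 0.50 and 0.80 FPKM, *S100a3* between 0.21 and 0.40, *S100a14*, *S100b* and *S100g* near 0, and *S100a5*, *S100a7l2*, *S100a16* and *S100z* were listed at 0 in every library.

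**Figure D1:**
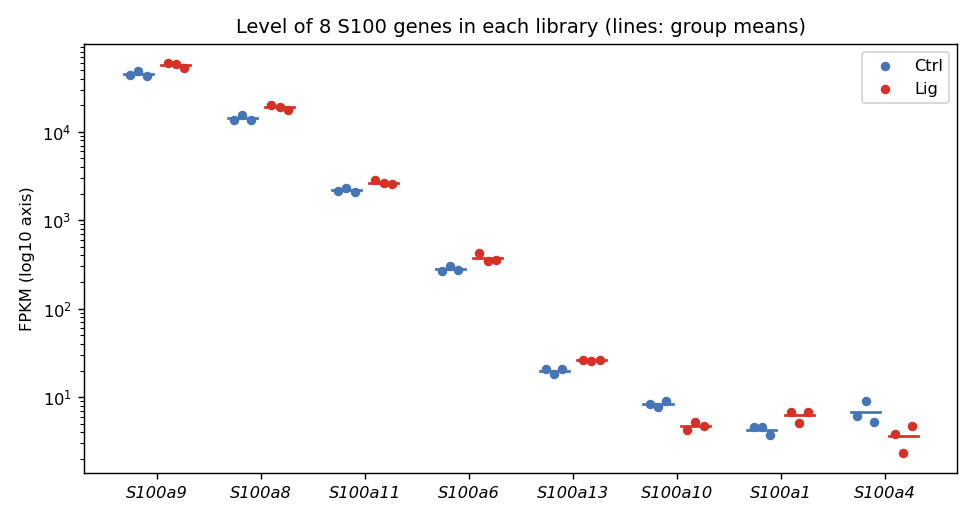
FPKM of the 8 S100 genes on a log10 axis, with 1 point for each library (blue, Ctrl; red, Lig) and lines at the group means (n = 3). Levels ran from a mean of 3.63 FPKM for *S100a4* in Lig to 56755 for *S100a9* in Lig, and *S100a10* and *S100a4* lay lower in Lig while the other 6 lay higher.

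Both calprotectin genes rose in Lig. *S100a8* stood at 13585, 15509 and 13762 FPKM in the Ctrl libraries and at 19849, 19295 and 17574 in the Lig libraries. The lowest Lig library exceeded the highest Ctrl library, and Ctrl replicate 2 was the highest control. In Lig relative to Ctrl the log2 fold change was 0.48 ± 0.08 (SE; edgeR quasi-likelihood test, adjusted p = 0.0136). *S100a9* stood at 43678, 48793 and 42715 FPKM in Ctrl and at 59249, 57810 and 53207 in Lig. The order of the libraries was nearly that of *S100a8*, with Ctrl replicate 2 again the highest control and Lig replicate 3 the lowest ligated library. Its log2 fold change was 0.41 ± 0.07 (edgeR adjusted p = 0.0180). Neither call held in every fit that left out 1 library. *S100a8* remained called in 5 of the 6 and was lost without Ctrl replicate 3 (edgeR adjusted p = 0.0675). *S100a9* remained called in 2 of 6, without Ctrl replicate 2 and without Lig replicate 3. Calls over all genes fell in these fits as well, from 381 to between 83 and 249 higher and from 619 to between 195 and 445 lower. The log2 fold changes in the fits without 1 library were 0.43 to 0.55 for *S100a8* and 0.37 to 0.48 for *S100a9*. Over the other settings they ran from 0.33 to 0.52 and from 0.26 to 0.45. The lowest came with limma on log2(TPM + 1) (adjusted p = 0.0254 and 0.0417).

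Together the pair held 16.9%, 18.8% and 16.9% of summed FPKM in the Ctrl libraries and 21.9%, 21.5% and 20.02% in the Lig libraries. The groups did not overlap. The mean share was 17.5 ± 1.09% in Ctrl and 21.1 ± 0.98% in Lig (SD, n = 3), a difference of 3.64 percentage points (2-sided exact permutation test, p = 0.1, the smallest that 3 against 3 libraries allow). Of deposited counts, which are not divided by transcript length, the pair held 3.67%, 4.12% and 3.63% in Ctrl and 5.09%, 4.93% and 4.54% in Lig, a difference of 1.05 percentage points on a lower level.

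Whether the subunits changed by the same factor was asked of their ratio within each library, which needs no scaling between libraries. The ratio of *S100a9* to *S100a8* FPKM was 3.22, 3.15 and 3.10 in Ctrl and 2.98, 2.996 and 3.03 in Lig. Every Lig library lay below every Ctrl library, by 0.07 on the log2 scale on average (exact permutation test, p = 0.1, the smallest possible). This shift is small beside the changes of the genes themselves. Relative to *Ngp*, the most abundant transcript between them, *S100a8* ranged from 0.79 to 0.89 in the controls and from 0.85 to 0.93 with ligatures, while *S100a9* ranged from 2.54 to 2.79 and from 2.57 to 2.78. Both ranges overlapped between groups.

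**Figure D2:**
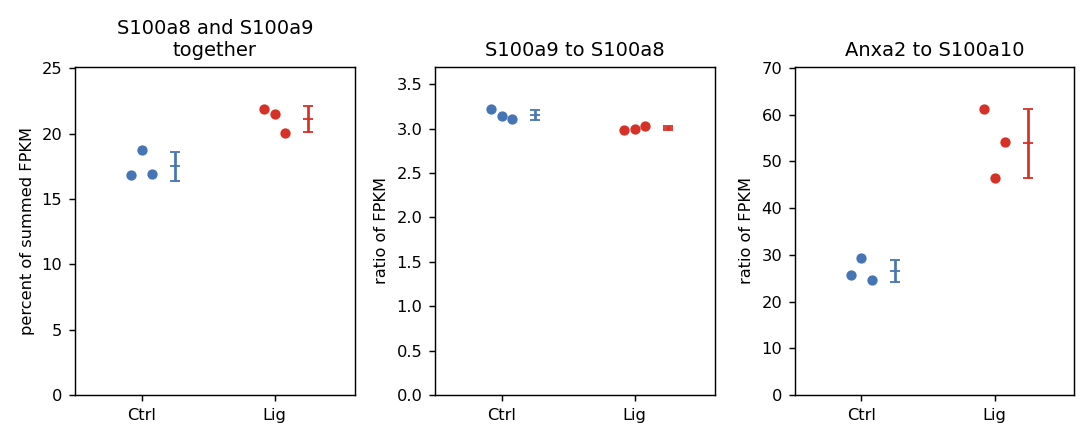
Left, summed FPKM share of *S100a8* and *S100a9* in percent; middle, ratio of *S100a9* to *S100a8* FPKM; right, ratio of *Anxa2* to *S100a10* FPKM. Points are libraries, bars are means ± SD (n = 3) and all axes start at 0. No panel shows overlapping groups, and the middle panel shows the smallest shift, from a mean ratio of 3.16 in Ctrl to 3.003 in Lig.

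Of the 8 members, 5 were called higher in Lig and 1 lower (edgeR, adjusted p under 0.05). Over all 9632 genes tested, 3.96% were called higher, 6.43% lower and 10.4% in either direction. The median log2 fold change of the members was 0.44, with 6 of 8 above 0, against a median of -0.001 over all genes tested, of which 49.81% lay above 0. The groups did not overlap in FPKM for any of the 8, higher in 6 and lower in 2, where 34.8% of all tested genes showed no overlap, 9.9% higher and 24.9% lower. limma on log2(FPKM + 1) also called 5 members higher and 1 lower, where 1.71% of all tested genes were called higher, 7.26% lower and 8.97% in either direction. The members were chosen with earlier results of these data known, so these shares give a scale and are no test of the family.

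**Figure D3:**
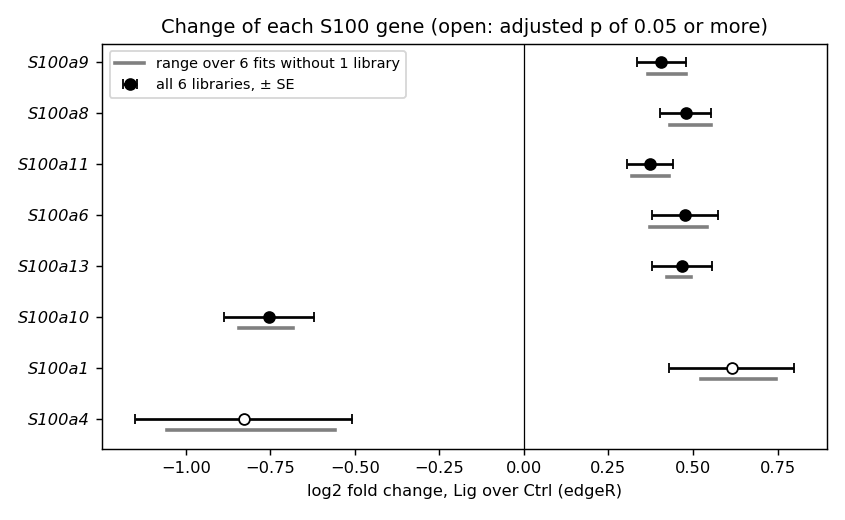
Log2 fold change in Lig relative to Ctrl for each S100 gene, ordered by level, with filled points for adjusted p under 0.05 and bars of ± SE (edgeR, 3 against 3 libraries). Grey lines give the range over the 6 fits that leave out 1 library, and none of the 8 ranges crosses 0.

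Among the intracellular members that rose, *S100a6* encodes calcyclin, which binds the calcyclin-binding protein and annexins. It stood at 266, 300 and 277 FPKM in Ctrl and at 421, 342 and 352 in Lig, where replicate 1 lay well above the others. Its log2 fold change was 0.48 ± 0.10 (edgeR adjusted p = 0.0284), and the call was lost in 4 of 6 fits without 1 library. Of the other scalings, filters and tests, it was lost with limma on log2(TPM + 1) (adjusted p = 0.0554).

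*S100a13* takes part in the release of FGF1 and interleukin-1α by a route that bypasses the secretory pathway. Its level was 20.7, 18.3 and 20.7 FPKM in Ctrl and 26.3, 25.5 and 26.5 in Lig. The Lig libraries lay close together and all above the controls (log2 fold change 0.47 ± 0.09, edgeR adjusted p = 0.0218). The call remained in 1 of 6 fits without 1 library, the fit without Lig replicate 2. The divergent neighbour *S100a1*, known for regulating calcium cycling in heart muscle, stood at 4.58, 4.54 and 3.72 FPKM in Ctrl and at 6.85, 5.04 and 6.80 in Lig. Its groups did not overlap, but the change of 0.62 ± 0.19 did not pass (edgeR adjusted p = 0.0777), while DESeq2 called it (adjusted p = 0.0378). The ratio of *S100a13* to *S100a1* overlapped between groups, at 4.03 to 5.55 in Ctrl and 3.84 to 5.06 in Lig.

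*S100a11* encodes a partner of annexin A1. It stood at 2121, 2293 and 2096 FPKM in Ctrl and at 2855, 2622 and 2540 in Lig. Its groups did not overlap, and the log2 fold change was 0.37 ± 0.07 (edgeR adjusted p = 0.0199), called in 2 of 6 fits without 1 library. The value is uncertain in level, because reads can be shared with processed pseudogenes: over 297 bases, the length of the pseudogene, *Gm12854* was 98.99% identical to the *S100a11* transcript and *Gm7665* 98.65%, and the table lists mean levels of 330.4 and 162.4 FPKM for them. Both pseudogenes also rose, by 0.30 ± 0.06 for *Gm12854* and 0.44 ± 0.07 for *Gm7665* (edgeR adjusted p = 0.0255 and 0.0153). With the counts of the 3 loci summed, the log2 fold change was 0.37 ± 0.07 (edgeR adjusted p = 0.0183), a setting added after the data were seen. Of the other members, only *S100a10* and *S100a4* had a similar transcript in GENCODE M21, at 0.107 FPKM for *Gm4714* and at 0 for *Gm42674*, which shares exons with *S100a4* on the same strand.

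*S100a10* was the member called lower. It encodes p11, which has lost calcium binding and sits in a stable complex with annexin A2 at the membrane, where it also binds the giant scaffold AHNAK. Its level was 8.47, 7.67 and 9.10 FPKM in Ctrl and 4.23, 5.30 and 4.66 in Lig. Every Lig library lay below every Ctrl library, with a log2 fold change of -0.75 ± 0.13 (edgeR adjusted p = 0.0180). The call remained without Ctrl replicate 2 or Lig replicate 2 and was lost without any of the other 4 libraries, where the adjusted p rose to at most 0.0692. *Anxa2* moved the other way: it stood at 218, 224 and 225 FPKM in Ctrl and at 259, 246 and 252 in Lig (log2 fold change 0.26 ± 0.05, edgeR adjusted p = 0.0206). The ratio of *Anxa2* to *S100a10* FPKM was therefore 24.7 to 29.3 in Ctrl and 46.4 to 61.1 in Lig. On the log2 scale *S100a10* relative to *Anxa2* was 1.01 lower in Lig (difference -1.01, exact permutation test, p = 0.1, the smallest possible).

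*S100a4*, which encodes metastasin, a regulator of non-muscle myosin IIA, stood at 6.19, 9.01 and 5.20 FPKM in Ctrl and at 3.87, 2.31 and 4.71 in Lig. The groups did not overlap, but the spread within each was wide and the change of -0.83 ± 0.32 did not pass (edgeR adjusted p = 0.142), nor did it in any fit without 1 library. *S100a4* and *S100a10* transcripts are abundant in monocytes and in some lymphocytes. Of 13 monocyte and macrophage markers, 9 were tested, of which 1, *F13a1*, fell and 0 rose, and the summed level of the list was 201 to 205 FPKM in Ctrl and 158 to 171 in Lig, with no marker at 0 in every library. The part of these and the other marker lists given above was not tested, neither for *S100a4* and *S100a10* nor for the members that rose.

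Along chromosome 3 the members lie in an interval of 3054 kb (GRCm38, 90511034 to 93564643). In chromosomal order, *S100a1*, *S100a13*, *S100a4*, *S100a6*, *S100a8* and *S100a9* stand within 185 kb, and *S100a11* and *S100a10* follow after a gap of 2825 kb. The interval held 122 genes with a row, of which 95 were at 0 in every library and 10 were tested: the 8 members and the predicted loci *Gm9774* and *Gm4202*, neither of which was called (edgeR adjusted p = 0.798 and 0.783). Direction did not follow position. *S100a6* (90612882 to 90624181, plus strand) rose while *S100a4*, 6836 bases away (90603771 to 90606045, plus strand), was lower without passing. *S100a11* (93520488 to 93526287, plus strand) rose and *S100a10*, 28792 bases further on (93555080 to 93564643, plus strand), fell. *S100a8* (90668978 to 90670035, plus strand) and *S100a9* (90692632 to 90695721, minus strand) are 22596 bases apart and rose together, each with 3 exons in its main transcript, encoding 89 and 113 residues.

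**Figure D4:**
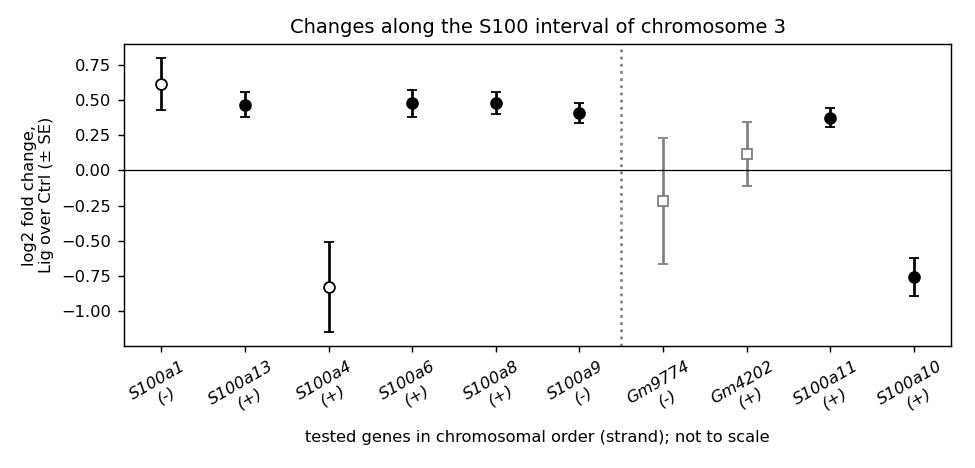
Log2 fold change (± SE, edgeR, n = 3 per group) of the 10 tested genes of the S100 interval in chromosomal order, with strand in brackets, circles for S100 genes, grey squares for other loci and filled symbols for adjusted p under 0.05. The dotted line marks the gap of 2825 kb. *S100a10* is the only filled symbol below 0.

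Profiles across the 6 libraries were compared by the root mean square difference of log2(FPKM + 1), centred on each gene's mean, among 3263 genes with a mean of at least 10 FPKM. The gene most like *S100a8* was *S100a9* (0.039), followed by *Gyg*, which encodes glycogenin (0.039), *Trim30a* (0.049), the *S100a11* pseudogene *Gm7665* (0.054) and *Ifitm3* (0.057). *Trim30a* and *Ifitm3* are known as interferon-induced genes. The genes most like *S100a9* were *S100a11* (0.037), *S100a8* (0.039), *Gm7665* (0.041), *Slfn1* (0.051) and *Ltf* (0.054), which encodes lactoferrin. Among the members that rose, *S100a13* was the least close to the pair, at rank 162 of 3263 for *S100a8* and 330 for *S100a9*. These likenesses rest on 6 libraries in 2 groups and are descriptions.

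Extracellular S100 proteins signal mainly through TLR4 and RAGE. Of 7 tested receptors and adaptors, 1 rose and 0 fell, with a median log2 fold change of 0.14, which turned to -0.006 with limma on log2(TPM + 1). These calls moved with the scaling: with library size alone and with limma on log2(FPKM + 1) 0 rose and 1 fell, and DESeq2 called 1 in each direction. In fits without 1 library, 0 to 1 rose and 0 fell. *Myd88*, the adaptor of Toll-like receptors, stood at 61.0, 64.7 and 63.4 FPKM in Ctrl and at 77.9, 66.7 and 77.9 in Lig (0.31 ± 0.08, edgeR adjusted p = 0.0486). The call was lost with library size alone (adjusted p = 0.0910 by edgeR), without a filter (0.0674), with a filter of 5 FPKM (0.0619) and in 5 of 6 fits without 1 library. It was also lost with limma on log2(FPKM + 1) (adjusted p = 0.101), log2(FPKM + 0.1) (0.103) and log2(TPM + 1) (0.215). *Cd14*, the co-receptor of TLR4, was lower in every Lig library without passing, at 359 to 368 FPKM in Ctrl and 273 to 313 in Lig (-0.22 ± 0.06, edgeR adjusted p = 0.0544). *Cd14* did pass with library size alone (edgeR adjusted p = 0.0191), with a filter of 5 FPKM (0.0292), with DESeq2 (0.0221) and with limma on log2(FPKM + 1) (0.0302). *Tlr4* itself lay between 0.37 and 2.44 FPKM, and *Ager*, which encodes the receptor RAGE, between 2.85 and 4.29 (0.40 ± 0.15, edgeR adjusted p = 0.132).

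Of 11 intracellular partners, all tested, 4 rose and 2 fell (median log2 fold change 0.15, which turned to -0.007 with limma on log2(TPM + 1)), and in fits without 1 library 1 to 3 rose and 0 to 2 fell. *Anxa1*, the partner of S100A11, rose from 580 ± 14.1 to 726 ± 26.0 FPKM (SD, n = 3; 0.40 ± 0.05, edgeR adjusted p = 0.00623). Of the NADPH oxidase, to which calprotectin binds and delivers arachidonic acid, the membrane subunit *Cybb* (0.34 ± 0.06, edgeR adjusted p = 0.0187) and the GTPase *Rac2* (0.24 ± 0.05, adjusted p = 0.0252) rose. The membrane subunit *Cyba* (0.17 ± 0.05, edgeR adjusted p = 0.0806) did not pass. *Ahnak*, the scaffold bound by S100A10 and annexin A2, fell from 7.09 ± 0.13 to 5.06 ± 0.73 FPKM (-0.41 ± 0.10, edgeR adjusted p = 0.0481), and *Anxa6* fell from 16.6 ± 1.10 to 11.9 ± 1.03 (-0.40 ± 0.09, edgeR adjusted p = 0.0320). *Myh9*, the myosin heavy chain bound by S100A4, was at 325 ± 5.35 and 341 ± 7.27 FPKM and did not pass (edgeR adjusted p = 0.0637).

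**Figure D5:**
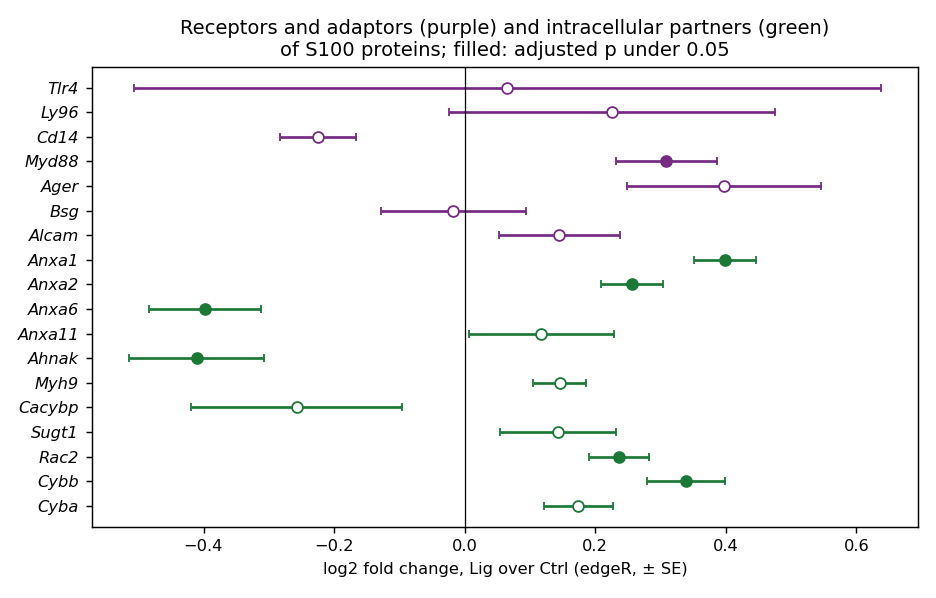
Log2 fold change in Lig relative to Ctrl (± SE, edgeR, n = 3 per group) of 7 tested receptors and adaptors (purple) and 11 intracellular partners (green) of S100 proteins, with filled points for adjusted p under 0.05. *Anxa1*, *Anxa2*, *Rac2*, *Cybb* and *Myd88* are filled to the right of 0, and *Anxa6* and *Ahnak* to the left.

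Of 7 transcription factors known to act on the calprotectin genes, 0 passed in either direction by edgeR (median log2 fold change -0.09), 4 had an unadjusted p under 0.05, and DESeq2 called 1 higher and limma called 1 lower on log2(FPKM + 1) and 3 lower on log2(TPM + 1). *Cebpb*, at 1768, 1788 and 1874 FPKM in Ctrl and 1421, 1548 and 1578 in Lig (-0.18 ± 0.05, edgeR adjusted p = 0.0695), and *Spi1*, which encodes PU.1, at 235 ± 5.54 and 252 ± 13.5 (0.18 ± 0.05, adjusted p = 0.0715), lay nearest to the threshold. *Cebpb* passed as lower by edgeR with library size alone (adjusted p = 0.0203) and with a filter of 5 FPKM (adjusted p = 0.0360). It also passed as lower with limma on log2(FPKM + 1) (adjusted p = 0.0369), log2(FPKM + 0.1) (0.0354) and log2(TPM + 1) (0.0220), but not with DESeq2 (adjusted p = 0.0599).

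Calprotectin is 1 of several proteins by which neutrophils withhold metals. Of 8 such genes other than the S100 members, 3 rose and 2 fell (median log2 fold change -0.07). The iron-binding or iron-sequestering proteins lactoferrin (*Ltf*, 0.40 ± 0.05, edgeR adjusted p = 0.00575), lipocalin 2 (*Lcn2*, 0.32 ± 0.04, adjusted p = 0.00665) and haptoglobin (*Hp*, 0.41 ± 0.05, adjusted p = 0.0078), which captures haemoglobin, rose by amounts close to those of *S100a8* and *S100a9*. The metallothioneins, which bind zinc inside cells, fell: *Mt1* stood at 31.4, 41.9 and 40.0 FPKM in Ctrl and at 16.9, 12.5 and 15.5 in Lig (-1.26 ± 0.16, edgeR adjusted p = 0.0066). *Mt2* stood at 12.6, 21.8 and 14.4 FPKM in Ctrl and at 5.87, 4.94 and 6.16 in Lig (-1.45 ± 0.24, edgeR adjusted p = 0.0149). Of 8 secondary granule genes, *Ltf* and *Lcn2* among them, 7 rose and 0 fell, with a median log2 fold change of 0.35, beside 0.48 for *S100a8* and 0.41 for *S100a9*. Without 1 library, 4 to 8 of these granule genes and 3 of the metal-withholding genes rose, while 1 to 2 metal-withholding genes fell. With limma on log2(TPM + 1), 4 granule genes rose and 0 fell, with a median of 0.20. In that setting 2 metal-withholding genes rose and 3 fell.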

How the data were processed

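The deposited table holds FPKM and expected counts for each gene and library, made by the authors from paired-end reads that, per the labels, were cleaned by cutadapt 1.9 and inspected by FastQC before alignment to GRCm38. Aligner, quantification program and strandedness: not given in the sources used here. These deposited expected counts were whole numbers and needed no rounding. Of values from 1 to 16, 40.2% to 41.3% were multiples of 4 (an even spread gives 25%), so about 4 counts may stand for 1 read pair, or 12.7 to 15.4 M pairs per library, and counting precision is lower than the totals give.

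Genes with a mean of at least 1 FPKM were tested with edgeR 4.0.16 (quasi-likelihood, TMM scaling, Benjamini-Hochberg over 9632 genes, threshold 0.05, R 4.3.3). Alternatives used DESeq2 1.42.0, limma 3.58.1 on log2(FPKM + 1), other scalings and filters, a replicate block and leaving out each library. The SE of each edgeR log2 fold change was derived as its absolute value divided by the square root of the quasi-likelihood F statistic. Ratios and shares were tested by exact permutation. Genes named were the members, other S100 genes, genes of the lists (beyond 4, those with the smallest p), the top 10 by level, the genes of closest profile and called genes of the interval. *Anxa6*, *Ahnak*, *Cyba*, *Myh9*, *Tlr4*, *Cebpe* and *Mt2* lie outside that rule, as do *Gm9774*, *Gm4202*, *Gm12854*, *Gm4714* and *Gm42674*, and were named after their values were seen. 1 gene planned for the partner list is not reported here. Transcripts of the members were aligned to GENCODE M21 to find similar loci. The members and lists were chosen with earlier results of these data known.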

Additional observations from a re-analysis of the deposited data

How the results depend on the processing

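No member changed direction under any setting tried. Of 932 values for 55 named genes, 777 kept their direction and side of the threshold, 123 lost the call, 23 gained it and 9 changed sign, none of them past the threshold. With limma on log2(TPM + 1) these were *Myh9* (-0.0071), *Cebpe* (-0.036) and *Tlr4* (-0.27). *Tlr4*, at about 1 FPKM, was also -0.018 with library size alone, -0.10 and -0.31 with limma on log2(FPKM + 1) and log2(FPKM + 0.1) and -0.29 with the replicate block, and ran from -0.73 to 0.51 over the fits without 1 library. The cause was not tested. Without 1 library, 0 to 4 members were called higher (0 without Ctrl replicate 3, 1 without Ctrl replicate 1 or Lig replicate 1, 2 without Lig replicate 3) and 0 to 1 lower, and over all genes 83 to 249 were called higher and 195 to 445 lower. Replicate numbers did not pair the samples (correlations of deviations for equal numbers -0.061, -0.0959 and 0.0391). With the replicate block, 0 members were called higher and 0 lower, and 16 genes higher and 38 lower over all.

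Over all genes, edgeR called 381 higher and 619 lower. Library size alone gave 168 higher, no filter 410 lower, a mean of at least 5 FPKM 228 higher and 376 lower, and DESeq2 749 and 994. limma called 165 higher on log2(FPKM + 1) and 165 on log2(FPKM + 0.1), and on log2(TPM + 1) 97 higher and 1232 lower. Calls that were higher made up 38.1% of all with TMM, 15.5% with library size alone, 19.1% with limma on FPKM and 7.3% on TPM, a scaling that moved the median of all genes to -0.14 on the log2 scale. On that scaling the median of the receptor list was -0.006. With 4 counts as 1 pair the member counts did not change. The calprotectin share differed by 1.05 percentage points on deposited counts.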
